A study of Mus musculus with 15 samples.

Results

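The genes described here sense DNA damage or repair it: 44 listed mouse genes for double-strand break sensing and repair, base excision repair, nucleotide excision repair and mismatch repair. Each was read from 1 probe set, the brightest of those that carry its symbol alone. By this rule 43 were found among the 19937 named genes of the array, and Rnf8 had no probe set of its own. A filter that kept the genes with the higher mean signal over all arrays (at least 5.5125 on the log2 scale) left 32 of the 43 among the 9969 genes tested. They were 13 of 19 double-strand break genes, 11 of 13 base excision genes, 8 of 10 nucleotide excision genes and 0 of 1 mismatch repair genes.

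RNA came from cardiomyocytes isolated from the left ventricle of male C57Bl/6NT (Taconic) mice aged 8 to 9 months. The exposed animals had received 0.15 Gy of iron ions (56Fe, 1 GeV per nucleon, about 151 keV per µm) over the whole body, at 0.05 Gy per minute. Exposed cells were hybridised to 3 arrays for each of days 1 and 3 and to 2 arrays for each of days 7, 14 and 28. Sham animals gave 2 arrays on day 1 and 1 array on day 3. The 3 sham arrays served as 1 control for every day, so that on days 7, 14 and 28 the time since exposure and the exposure cannot be told apart. Whether replicate arrays were made from different mice is not stated in the labels, so the p-values rest on variation among arrays that could be technical in part or in whole.

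All 8 cardiomyocyte markers lay at or above the 99.6th percentile of the named genes, with a mean log2 signal of 12.01 to 12.23 over the 15 arrays. The preparation can also hold a few inflammatory or endothelial cells, per the labels, and in such a mixture fewer cells of a type and less RNA per cell cannot be told apart. Some arrays stood apart in markers of other cells. The mean log2 signal of 11 thymocyte and T cell markers was 7.43 to 7.59 on iron day 28 and 6.32 in the sham day 3 array, against 3.68 to 3.99 in the sham day 1 arrays and 3.58 to 5.67 on the other iron days. On iron day 3 the mean of 10 fibroblast markers was 6.43 to 6.64, against 7.92 to 8.05 in sham. The day 28 values are also given below against the sham day 1 arrays alone, and the late calls without day 28.

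Double-strand breaks are recognised by kinases and by proteins that gather at the marked chromatin, and the ends are rejoined directly or by copying the sister chromatid, which needs a cell in cycle. Base excision repair removes small oxidised, deaminated or alkylated bases, and nucleotide excision repair cuts out bulky, helix-distorting lesions. Adult cardiomyocytes rarely divide, so end joining and excision repair are the routes usually considered in them, while recombination and mismatch repair are tied to DNA replication.

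Of the 43 genes, 34 had a promoter entry in the RefSeq table for mouse (GRCm38.p6). Prkdc and H2ax are named only. The 250 bases before the start that this table uses are printed for the 4 genes with an entry that passed a test below, because these are the genes whose transcript level differed between groups. For Atr and Pcna that start is the gene's first base in RefSeq's gene table. For Ung and Ercc5 it lies inside the gene, so that part of the Ung window and all of the Ercc5 window follow the gene's first annotated base. Capitals mark matches, on either strand, to any of 6 motifs searched. The box known as CCAAT is bound by the trimeric factor named after it. The GC box, searched as GGGCGG, is bound by Sp1 and its relatives. For ETS factors the letters searched were CCGGAAG. The E box was searched in its form CACGTG. For E2F factors, which drive replication genes, the form searched was TTTNNCGC. The sixth motif was the p53 half-site. No matches overlap in these windows. The windows are chr2:132253181-132253430 (minus strand) for Pcna, chr9:95857347-95857596 (plus strand) for Atr, chr5:114130185-114130434 (plus strand) for Ung and chr1:44147494-44147743 (plus strand) for Ercc5.
Pcna: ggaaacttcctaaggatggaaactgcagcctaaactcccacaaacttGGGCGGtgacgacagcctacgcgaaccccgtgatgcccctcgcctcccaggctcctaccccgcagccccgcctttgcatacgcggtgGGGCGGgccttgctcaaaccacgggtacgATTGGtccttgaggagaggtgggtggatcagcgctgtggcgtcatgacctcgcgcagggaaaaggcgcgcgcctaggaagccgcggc
Atr: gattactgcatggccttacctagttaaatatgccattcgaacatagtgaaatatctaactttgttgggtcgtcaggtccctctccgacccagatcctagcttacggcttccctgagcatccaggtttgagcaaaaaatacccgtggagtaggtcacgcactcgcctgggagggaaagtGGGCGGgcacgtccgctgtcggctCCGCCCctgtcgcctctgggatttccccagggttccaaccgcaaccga
Ung: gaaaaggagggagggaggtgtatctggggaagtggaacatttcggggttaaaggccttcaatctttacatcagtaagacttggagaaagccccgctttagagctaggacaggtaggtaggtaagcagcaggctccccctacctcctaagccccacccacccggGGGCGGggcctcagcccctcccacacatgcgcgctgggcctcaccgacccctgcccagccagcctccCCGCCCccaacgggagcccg
Ercc5: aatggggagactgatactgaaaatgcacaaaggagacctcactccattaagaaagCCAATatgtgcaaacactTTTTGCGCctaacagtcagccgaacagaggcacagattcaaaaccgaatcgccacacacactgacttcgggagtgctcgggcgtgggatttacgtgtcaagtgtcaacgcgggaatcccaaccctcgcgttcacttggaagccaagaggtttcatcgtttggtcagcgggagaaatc

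The GC box, which Pcna, Atr and Ung share, was found for 21 of the 34 genes (61.8%) and for 35.4% of all 27025 genes with a promoter entry. A gene was counted if any of its entries held a match. The CCAAT box of Pcna and Ercc5 was in 16 of 34 (47.1%, against 37.5% of all). The E2F form, which Ercc5 holds, was in 6 of 34 (17.6%, against 4.94%). The ETS site and the E box were each in 6 of 34 (17.6%, against 7.83% and 6.86% of all), and a p53 half-site was in 1, Fen1 (2.94%, against 8.2%). Matches describe these letters only.

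Differences from sham were small on every day, and few passed the test. Differences are on the log2 scale, iron minus sham, from limma with Benjamini-Hochberg adjustment over all 9969 genes, and a gene passed at an adjusted p under 0.05. On day 1 none of the 32 tested repair genes passed, where 0.0602% of all genes did. On day 3 1 passed (3.12%, against 8.03% of all genes), on day 7 2 passed (6.25%, against 4.6%), and on days 14 and 28 none did (against 0.833% and 2%). At an unadjusted p under 0.05 the counts of repair genes on days 1, 3, 7, 14 and 28 were 3, 2, 6, 3 and 4 of 32, and the shares of all genes were 11%, 27.2%, 24%, 15.4% and 19.3%. The mean of all iron days against sham gave 0 of 32 (1.13% of all genes passed), with 3 of 32 at an unadjusted p under 0.05 (15.9% of all genes).

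The precision allowed changes of moderate size to be bounded. The 95% interval of the difference lay within a 1.5-fold change in either direction for 31, 32, 30, 31 and 28 of the 32 genes on days 1, 3, 7, 14 and 28. Over all tested genes the corresponding shares were 86.5%, 78.2%, 74.3%, 77.7% and 76%.

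**Figure D1:**
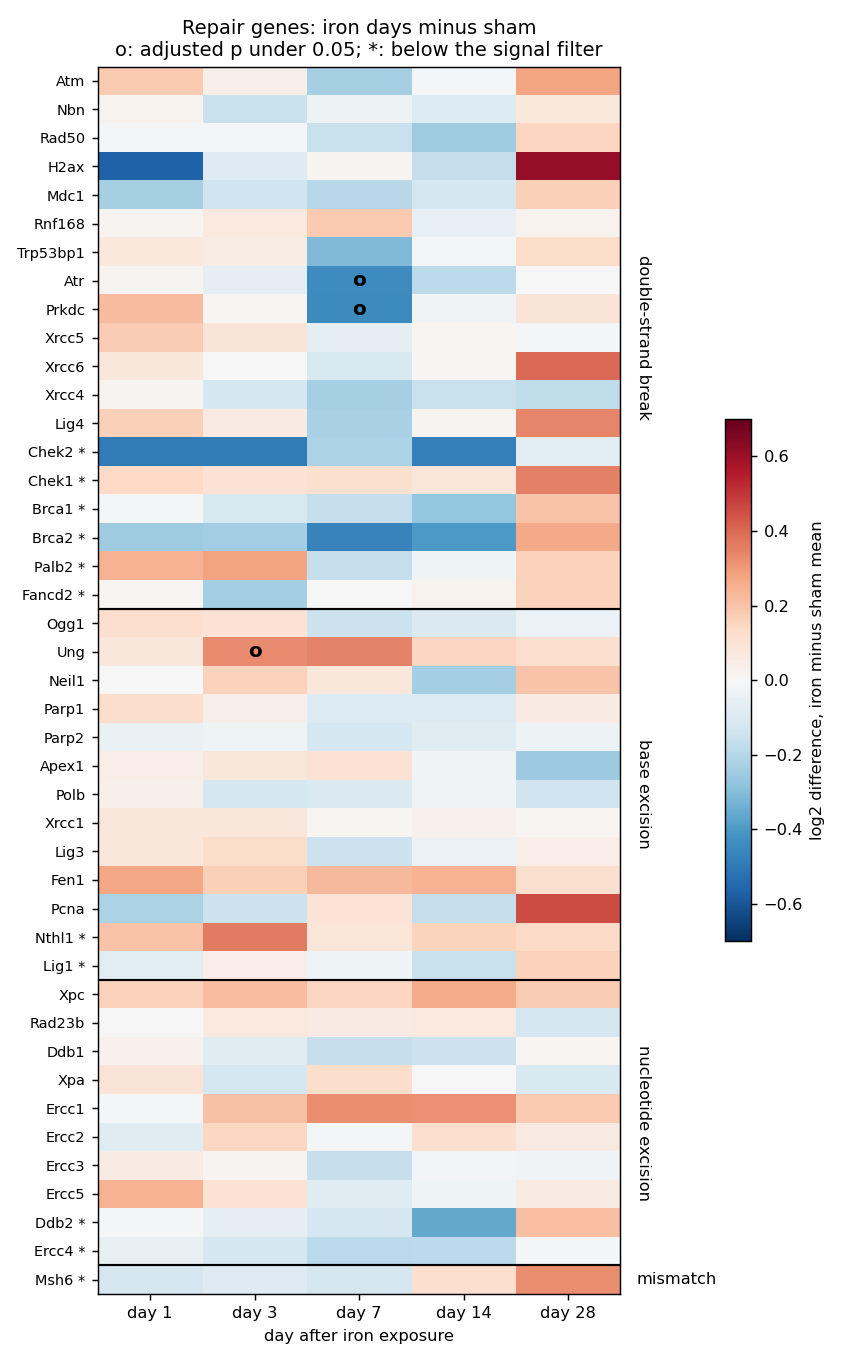
Difference between each iron day and sham (log2, colour) for the 43 genes, in rows by pathway, with days in columns. A circle marks the 3 differences that passed (Ung on day 3, Atr and Prkdc on day 7), and an asterisk after a name marks the 11 genes below the signal filter, which were not tested.

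Among the genes that sense and signal double-strand breaks, Atr, the kinase recruited to single-stranded DNA at breaks and stalled forks, was the one that passed against sham. Its log2 signal was 6.24 and 6.05 in the sham day 1 arrays and 6.30 in the sham day 3 array. It was 6.25, 6.21 and 6.18 on iron day 1, 6.31, 5.98 and 6.11 on day 3, 5.81 and 5.71 on day 7, 5.96 and 6.07 on day 14, and 6.16 and 6.24 on day 28. Both day 7 arrays lay below all 13 other arrays. Atr fell by 0.438 on day 7 (SE 0.11, 95% interval -0.68 to -0.20, 0.738 of the sham level, limma adjusted p = 0.0399). On day 14 the difference was -0.184 (SE 0.11, adjusted p = 0.43) and on day 28 it was 0.004 (SE 0.11). The day 7 call was lost without any 1 of 8 arrays (iron day 1 replicate 3, iron day 3 replicate 3, both iron day 7 arrays, both iron day 28 arrays, sham day 1 replicate 1 or the sham day 3 array), with differences of -0.49 to -0.39 and adjusted p of 0.0522 to 0.143.

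Atm, the kinase that answers the break itself, showed the same sign on day 7 without passing. Its log2 signal was 5.75, 5.75 and 5.99 in sham and 5.71 and 5.49 on iron day 7, and the highest values, 6.04 and 6.17, were on day 28 together with 6.11 in 1 day 1 array. The differences were -0.232 (SE 0.129, adjusted p = 0.29) on day 7 and 0.276 (SE 0.129, adjusted p = 0.26) on day 28. Trp53bp1, which holds broken ends for joining, was at 6.10, 6.06 and 6.30 in sham and at 5.83 and 5.86 on day 7. The day 7 arrays did not overlap with the other 13 arrays, and the difference of -0.31 (SE 0.101, adjusted p = 0.0894) did not pass. With each array centred on its median it was -0.39 (SE 0.097, adjusted p = 0.0236) and passed, where 11.1% of all genes did.

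H2ax, the histone variant that is phosphorylated along the chromatin beside a break, was the most variable of the tested signalling genes within sham. Its log2 signal was 5.98 and 5.63 in the sham day 1 arrays and 6.56 in the sham day 3 array. It was 5.39, 5.55 and 5.53 on iron day 1, 6.29, 5.58 and 6.04 on day 3, 6.26 and 5.89 on day 7, 6.10 and 5.68 on day 14, and 6.80 and 6.54 on day 28. All 3 day 1 arrays lay below the 3 sham arrays, and the day 28 arrays overlapped with the sham day 3 array alone. The differences were -0.567 (SE 0.224, adjusted p = 0.366) on day 1 and 0.615 (SE 0.25, adjusted p = 0.203) on day 28, and neither passed.

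The sensors Nbn and Rad50 (partners in the complex that first binds broken ends) and the chromatin adaptors Mdc1 and Rnf168 did not pass on any day. Rad50 was lowest on day 14, with 5.97 and 6.29 against 6.39, 6.23 and 6.51 in sham, a difference of -0.247 (SE 0.112, adjusted p = 0.313). Mdc1 differed by -0.232 (SE 0.119, adjusted p = 0.499) on day 1. Rnf168, the ligase that extends ubiquitin marks around a break, differed by 0.181 (SE 0.114, adjusted p = 0.36) on day 7, against the sign of most double-strand break genes that day. The checkpoint kinases Chek1 and Chek2 lay below the signal filter.

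In end joining, Prkdc, the catalytic subunit of the DNA-dependent protein kinase, passed on day 7. Its log2 signal was 6.08 and 6.16 in the sham day 1 arrays and 6.21 in the sham day 3 array. It was 6.35, 6.43 and 6.33 on iron day 1, 6.14, 6.20 and 6.14 on day 3, 5.82 and 5.59 on day 7, 5.96 and 6.29 on day 14, and 6.18 and 6.30 on day 28. The day 1 arrays were the 3 highest of all 15 and the day 7 arrays the lowest 2. Prkdc fell by 0.445 on day 7 (SE 0.109, 95% interval -0.68 to -0.21, 0.734 of the sham level, limma adjusted p = 0.0371), while its day 1 difference of 0.222 (SE 0.0974, adjusted p = 0.42) did not pass. The day 7 call was lost without any 1 of 10 arrays (all 3 of iron day 3, both of iron days 7 and 28, and all 3 sham arrays), with differences of -0.56 to -0.33 and adjusted p of 0.0502 to 0.17.

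The other end joining genes did not pass on any day. Xrcc6 and Xrcc5 encode the Ku70 and Ku80 subunits that clamp onto broken ends. Xrcc6 was at 5.89, 5.96 and 6.03 in sham and at 6.40 and 6.31 on iron day 28, higher than in all other arrays, with a difference of 0.395 (SE 0.124, adjusted p = 0.117). Xrcc5 was at 7.12, 7.00 and 7.06 in sham and at 7.07 and 7.02 on day 28, inside the sham range. Lig4, the ligase of end joining, was at 6.44, 6.26 and 6.43 in sham, 6.01 and 6.28 on day 7 and 6.83 and 6.61 on day 28, with differences of -0.229 (SE 0.128, adjusted p = 0.296) and 0.344 (SE 0.128, adjusted p = 0.17). Its partner Xrcc4 differed by -0.235 (SE 0.107, adjusted p = 0.201) on day 7 and by -0.177 (SE 0.107, adjusted p = 0.386) on day 28.

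As a group, 11 of the 13 tested double-strand break genes were below sham on day 7, as were 5631 of all 9969 tested genes. Their median difference was -0.194, against -0.0342 over all tested genes. It stayed below 0 under each of the 26 alternatives tried (-0.273 to -0.0504). Over 25 double-strand break genes outside the list the day 7 median was -0.0294. It was -0.142, -0.0781 and -0.182 over 9 base excision, 12 nucleotide excision and 3 mismatch repair genes outside the list. The median of the 13 was 0.0265 on day 1, 0.00329 on day 3 and -0.0564 on day 14. On day 28 it was 0.129, with 11 of 13 above sham (5345 of all 9969 genes were) and a median over all genes of 0.019. The day 28 median was 0.203 without the sham day 3 array, 0.0495 under quantile normalization, 0.047 under a stricter signal filter and 0.016 with arrays centred on their medians, a scaling that moved the day 28 median of all genes by -0.11. The T cell and proliferation markers were also high in the day 28 arrays, and their part in this median was not tested. The 11 base excision genes had day 7 and day 28 medians of 0.0127 and 0.0463, and the 8 nucleotide excision genes 0.0238 and 0.039.

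**Figure D2:**
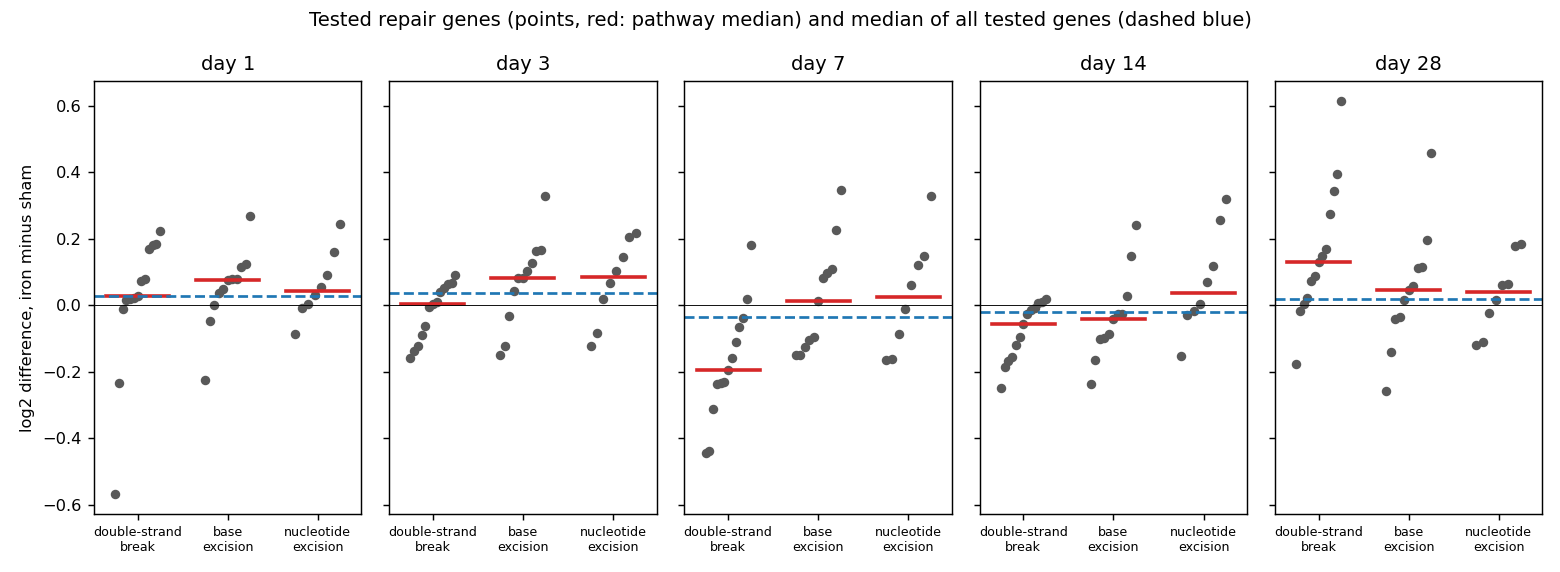
Difference from sham (log2, vertical axis) of each tested repair gene (points), by pathway and day, with the pathway median in red and the median of all 9969 tested genes as a dashed line. The double-strand break genes have a median of -0.194 on day 7 and 0.129 on day 28, while the other medians lie between -0.0564 and 0.0843.

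The day 7 differences of all genes varied with the length of the gene. Genomic span, from RefSeq's GRCm38.p6 annotation, was used to sort the tested genes into 4 bins of equal number. Median day 7 differences were 0.0907 in the bin of shortest genes (0.061 to 9.74 kb) and -0.0141 and -0.0729 in the next bins. In the longest bin (57.2 to 2390 kb) the median was -0.132. From the shortest to the longest bin the medians also ran from 0.112 to -0.0261 on day 3 and 0.062 to -0.0882 on day 14. They ran from 0.046 to 0.0115 on day 1 and from 0.0347 to 0.0277 on day 28. Rad50, Xrcc5, Atr, Atm, Trp53bp1, Prkdc and Xrcc4 span 57.8, 87.5, 95.6, 99.7, 102, 205 and 241 kb. All 7 are in the bin of longest genes, and all 7 were below sham on day 7, as were 73.7% of all genes in that bin. The median difference of the 7 was -0.235. With the trend on span removed, a step chosen after the data were seen, no repair gene passed on day 7. Prkdc then differed by -0.29 (SE 0.0988, adjusted p = 0.125) and Atr by -0.32 (SE 0.107, adjusted p = 0.119). The day 7 median of the double-strand break genes was then -0.109, against -0.194 in the main fit.

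**Figure D3:**
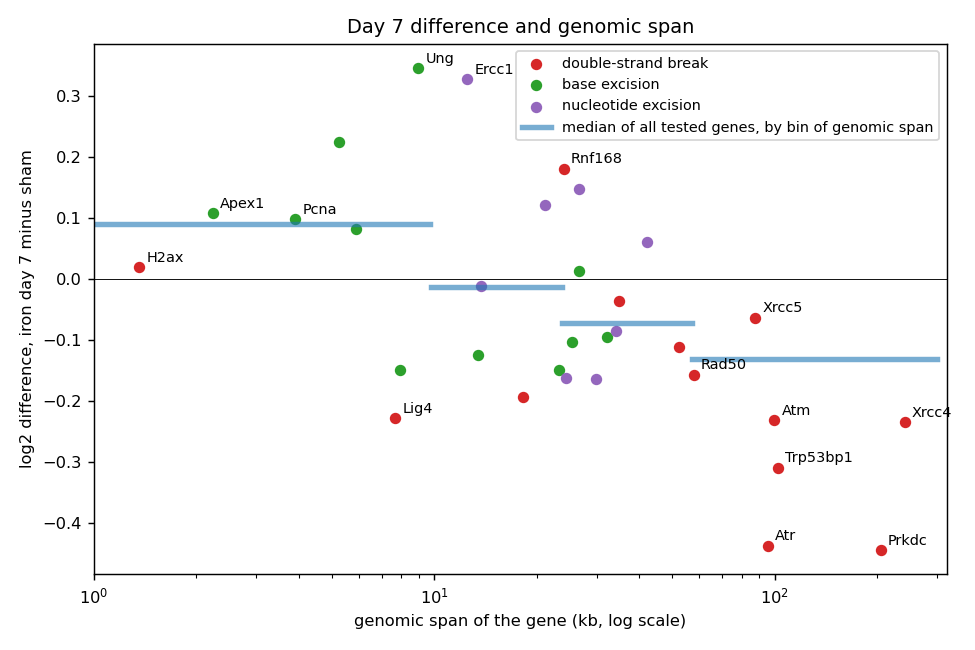
Day 7 difference from sham (log2) against genomic span (kb, log axis) for the 32 tested repair genes, coloured by pathway, with the median of all tested genes in each of 4 bins of span as a bar. The 7 repair genes in the longest bin lie below 0, from Xrcc5 to Prkdc, as do 73.7% of all tested genes in that bin. Ung and Ercc1 are the 2 highest points.

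Markers of other cells also moved on day 7. The mean log2 signal of 10 macrophage markers was 7.47 to 7.85 on day 7 and 6.96 to 7.20 in sham (1 of 8 tested was higher by the test), and that of 5 B cell markers was 5.71 to 7.32 against 4.70 to 6.27. The cardiomyocyte markers were at 12.01 to 12.12 against 12.14 to 12.15 (1 of 8 lower, Ryr2 by -0.33, adjusted p = 0.0295). Their part in the day 7 differences of Atr and Prkdc was not tested.

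In base excision repair, Ung, the glycosylase that removes uracil from DNA, passed on day 3. Its log2 signal was 6.11 and 6.12 in the sham day 1 arrays and 5.93 in the sham day 3 array. It was 6.15, 6.13 and 6.11 on iron day 1, 6.29, 6.40 and 6.46 on day 3, 6.26 and 6.53 on day 7, 6.14 and 6.26 on day 14, and 6.17 in both day 28 arrays. The day 3 arrays lay above all sham and day 1 arrays. Ung rose by 0.329 on day 3 (SE 0.0917, 95% interval 0.13 to 0.53, 1.26-fold, limma adjusted p = 0.0441). The day 7 difference of 0.346 (SE 0.103, adjusted p = 0.0695) was of like size and did not pass.

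The Ung call was lost without any 1 of 10 arrays (iron day 1 replicates 2 and 3, all 3 of iron day 3, both of iron day 28 and all 3 sham arrays), with differences of 0.27 to 0.38 and adjusted p of 0.0522 to 0.148. On day 3 all 10 fibroblast markers, 6 of 8 macrophage markers and 6 of 10 endothelial markers were lower than in sham, and the mean of the macrophage markers was 5.92 to 6.21 against 6.96 to 7.20. The endothelial markers were at 6.87 to 7.28 against 7.94 to 8.30. Their part in the Ung difference was not tested.

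The glycosylases Ogg1 and Neil1, which remove oxidised bases, did not pass on any day. Ogg1 was at 5.63, 5.72 and 5.59 in sham, with differences between -0.149 (SE 0.121) on day 7 and 0.115 (SE 0.108) on day 1. Neil1 differed by -0.237 (SE 0.11, adjusted p = 0.326) on day 14 and by 0.197 (SE 0.11, adjusted p = 0.348) on day 28. Among the enzymes that complete the repair, the endonuclease Apex1 differed by -0.257 (SE 0.148, adjusted p = 0.362) on day 28, the flap nuclease Fen1 by 0.268 (SE 0.133, adjusted p = 0.488) on day 1, and the ligase Lig3 by -0.149 (SE 0.0916, adjusted p = 0.345) on day 7. Parp1, which senses nicks, stayed between -0.098 (SE 0.104) on day 14 and 0.123 (SE 0.0928) on day 1.

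Pcna, the sliding clamp for repair and replication polymerases, did not pass against sham on any day, although its day 28 arrays were the highest 2 of all. Its log2 signal was 8.94 and 8.71 in the sham day 1 arrays and 9.25 in the sham day 3 array. It was 8.67, 8.78 and 8.78 on iron day 1, 8.91, 8.84 and 8.70 on day 3, 9.19 and 8.94 on day 7, 8.82 and 8.78 on day 14, and 9.45 and 9.40 on day 28. The day 28 difference was 0.459 (SE 0.132, 95% interval 0.18 to 0.74, limma adjusted p = 0.0906).

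The nucleotide excision genes had no call on any day. Ercc1, part of the nuclease that cuts on the 5′ side of a lesion, was at 7.30, 7.08 and 7.06 in sham, 7.31 and 7.63 on day 7, and 7.57 and 7.36 on day 14. Its differences were 0.328 (SE 0.117, adjusted p = 0.117) on day 7 and 0.319 (SE 0.117, adjusted p = 0.223) on day 14, and both groups lay above all sham arrays. Xpc, which finds distorted DNA, was at 5.26, 5.59 and 5.39 in sham and at 5.64 and 5.71 on day 14, a difference of 0.258 (SE 0.109, adjusted p = 0.285). Ercc5, the nuclease that cuts on the 3′ side, had the smallest p of the repair genes on day 1, with 7.14, 7.25 and 7.14 against 6.87, 6.85 and 7.08 in sham and a difference of 0.245 (SE 0.0841, adjusted p = 0.314). Over all iron days together the smallest p belonged to Ung (0.203, SE 0.0728, adjusted p = 0.206) and Ercc1 (0.206, SE 0.0832, adjusted p = 0.257).

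The 11 genes below the signal filter included all 4 recombination and Fanconi genes of the list, Brca1, Brca2, Palb2 and Fancd2. The others were the checkpoint kinases Chek1 and Chek2, the base excision genes Lig1 and Nthl1, the nucleotide excision genes Ddb2 and Ercc4, and Msh6. In a fit without the filter none of them passed in any comparison, and on days 1, 3, 7, 14 and 28 the counts with an unadjusted p under 0.05 were 1, 2, 1, 1 and 2 of 11. Among all 9968 genes below the filter, the shares with such a p in the same fit were 9.74%, 24.9%, 15.9%, 15.5% and 11.3%, and the shares that passed were 0%, 4.1%, 1.24%, 0.351% and 0.973%. Brca2, which loads the recombinase, was at 4.58, 4.58 and 4.81 in sham and 4.37 and 4.01 on day 7 (-0.466, SE 0.176, adjusted p = 0.165). Chek1 was at 4.24, 4.21 and 4.32 in sham and 4.60 and 4.62 on day 28 (0.351, SE 0.116, adjusted p = 0.164). Msh6, the mismatch recognition subunit and the one mismatch repair gene of the list, was at 4.74, 4.75 and 4.98 in sham and 5.23 and 5.07 on day 28 (0.325, SE 0.135, adjusted p = 0.271).

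Late iron days (7, 14 and 28) were then compared with early ones (1 and 3), a contrast that uses no sham array in its means. Of the 32 repair genes 4 passed (12.5%, against 22% of all genes), 2 higher (10.3% of all genes) and 2 lower (11.7% of all genes), and 8 had an unadjusted p under 0.05 (36% of all genes did). The split depended on the scaling, as did that of all tested genes (1027 higher and 1167 lower in the main fit). Quantile normalization gave 1 higher and 6 lower, where 960 of all tested genes were higher and 1437 lower (24% passed). Median centring gave 1 higher and 5 lower, where 907 of all tested genes were higher and 1584 lower (25% passed). H2ax did not pass under either (0.43 and 0.45, adjusted p = 0.063 and 0.0551). Atr, Ogg1 and Lig3 passed as lower under both scalings, and Trp53bp1 under quantile normalization alone. Ogg1 differed by -0.26 under quantile normalization and -0.24 under median centring (limma adjusted p = 0.0199 and 0.0238). Of all genes that passed, 46.8% were higher, against 40.1% under quantile normalization and 36.4% under median centring. Pcna was higher late, by 0.316 (SE 0.0833, 1.24-fold, adjusted p = 0.0177) and H2ax by 0.484 (SE 0.158, 1.40-fold, adjusted p = 0.0439). Prkdc was lower late by -0.243 (SE 0.0689, 0.845-fold, adjusted p = 0.0245) and Ercc5 by -0.191 (SE 0.0594, 0.876-fold, adjusted p = 0.0361). The late and early arrays overlapped for Prkdc, Pcna and H2ax. For Ercc5 the late arrays ran from 6.78 to 7.01 and the early ones from 6.99 to 7.25, so that 1 day 28 array lay inside the early range.

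A limma F test for any difference among the 5 iron days passed 4 of 32 repair genes (12.5%, against 19.2% of all genes), with 10 at an unadjusted p under 0.05 (39.7% of all genes). They were Prkdc (adjusted p = 0.0123), Pcna (0.0179), H2ax (0.0409) and Atr (0.0481), and Trp53bp1 fell just outside (0.0509). Across the 8 comparisons 6 distinct repair genes passed at least once, and 3 of them did so against sham on a single day. The share of all tested genes that passed at least once is not given here. These pooled counts therefore cannot be read as a result about repair genes.

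**Figure D4:**
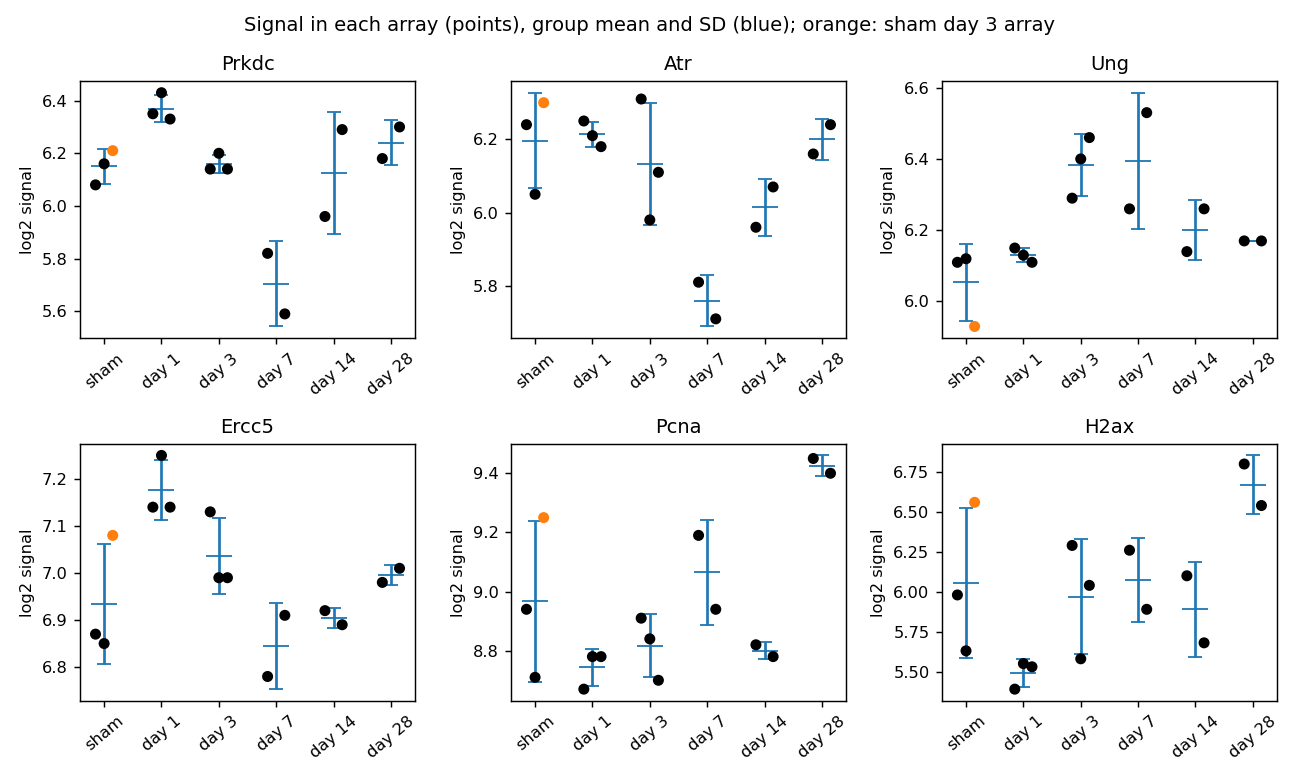
Log2 signal in each array (points) of the 6 repair genes that passed in any comparison, by group, with the group mean and SD in blue and the sham day 3 array in orange. Prkdc and Atr are lowest on day 7 (means 5.71 and 5.76), Ung is highest on days 3 and 7 (6.38 and 6.40), and Pcna and H2ax are highest on day 28 (9.42 and 6.67). Each panel has its own axis, which does not start at 0.

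The late calls of Pcna and H2ax rested on day 28. Without the day 28 arrays, a step chosen after the data were seen, their late minus early differences were 0.15 (SE 0.0981, adjusted p = 0.328) and 0.25 (SE 0.182, adjusted p = 0.38), that of Ercc5 was -0.23 (SE 0.0704, adjusted p = 0.0509), and that of Prkdc was -0.35 (SE 0.0797, adjusted p = 0.0165). Atr, which did not pass late against early with all days (-0.183, SE 0.0696, limma adjusted p = 0.075), then passed as lower. In that fit 1256 of all 9969 genes passed late against early. The F test without day 28 passed Prkdc alone (adjusted p = 0.0207), with Atr at 0.0851, H2ax at 0.311 and Pcna at 0.365. The Pcna late call was lost without iron day 7 replicate 1 (0.28, adjusted p = 0.0579) or iron day 28 replicate 1 (0.31, adjusted p = 0.052). The Prkdc late call was lost without any 1 of 4 arrays (iron day 1 replicate 2, iron day 3 replicate 2, iron day 14 replicate 1 or iron day 28 replicate 1), at -0.23 to -0.19 and adjusted p of 0.0547 to 0.0769.

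The H2ax late call was lost without any 1 of 10 arrays (all 3 of iron day 1, iron day 3 replicates 2 and 3, replicate 1 of iron days 7 and 14, both of iron day 28 or sham day 1 replicate 1), at 0.39 to 0.53 and adjusted p of 0.0552 to 0.122. The Ercc5 call was also lost without any 1 of 10 (iron day 1 replicates 2 and 3, all 3 of iron day 3, iron day 7 replicate 1 and both of iron days 14 and 28), at -0.20 to -0.17 and adjusted p of 0.0514 to 0.10. In the F test Prkdc was lost without iron day 7 replicate 2 (adjusted p = 0.0573), and Pcna without iron day 28 replicate 1 or 2 (0.0891 to 0.106). H2ax was lost without any 1 of 8 arrays (all 3 of iron day 1, iron day 3 replicate 3, iron day 7 replicate 1, both of iron day 28 or sham day 1 replicate 1) (0.0568 to 0.182). Atr was lost without any 1 of 11 (0.0509 to 0.168), and passed only without iron day 3 replicate 1, iron day 14 replicate 2, sham day 1 replicate 2 or the sham day 3 array.

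T cell and proliferation markers were highest in the 2 day 28 arrays and the sham day 3 array, which also held the 3 highest values of Pcna and of H2ax. The sham day 3 array exceeded the mean of the sham day 1 arrays by 0.76 for H2ax and by 0.42 for Pcna, and its T cell marker mean was 6.32 against 3.68 to 3.99. Among the 3 tested T cell markers, Cd4 and Cd3e were higher on day 28 than in sham. Cd4 differed by 2.62 (SE 0.38, limma adjusted p = 0.00264) and Cd3e by 1.58 (SE 0.276, adjusted p = 0.00984), and all 3 were higher late than early. The 3 had reached the signal filter by their mean over all arrays, day 28 included, which favours markers that are high on that day. Other lists ran differently: the B cell marker mean was highest in iron day 7 replicate 1 (7.32, against 6.31 to 6.38 on day 28 and 6.27 in the sham day 3 array), and the mean of 8 lung epithelium markers was highest in the sham day 3 array (7.40, against 5.88 to 6.16 on day 28 and 4.73 to 5.42 in the sham day 1 arrays). The mean of 15 proliferation markers was 5.97 to 6.12 on day 28, 5.02 to 5.76 in sham and 4.68 to 5.33 on the other iron days. With the sham day 1 arrays alone as control, the day 28 differences became 0.87 (SE 0.222, adjusted p = 0.0441) for H2ax and 0.60 (SE 0.112, adjusted p = 0.0104) for Pcna, and both passed, where 4.77% of all genes did. Against that control Xrcc6 differed by 0.43 (SE 0.137, adjusted p = 0.0913), Lig4 by 0.37 (SE 0.144, adjusted p = 0.155), Atm by 0.35 (SE 0.134, adjusted p = 0.144) and Apex1 by -0.39 (SE 0.141, adjusted p = 0.13). The median differences were then 0.203 for the double-strand break genes, 0.0515 for the base excision genes and 0.0379 for the nucleotide excision genes. The part of these markers in the Pcna and H2ax differences was not tested. In late against early iron, 8 of 10 fibroblast, 6 of 8 macrophage and 4 of 10 endothelial markers were higher too.

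**Figure D5:**
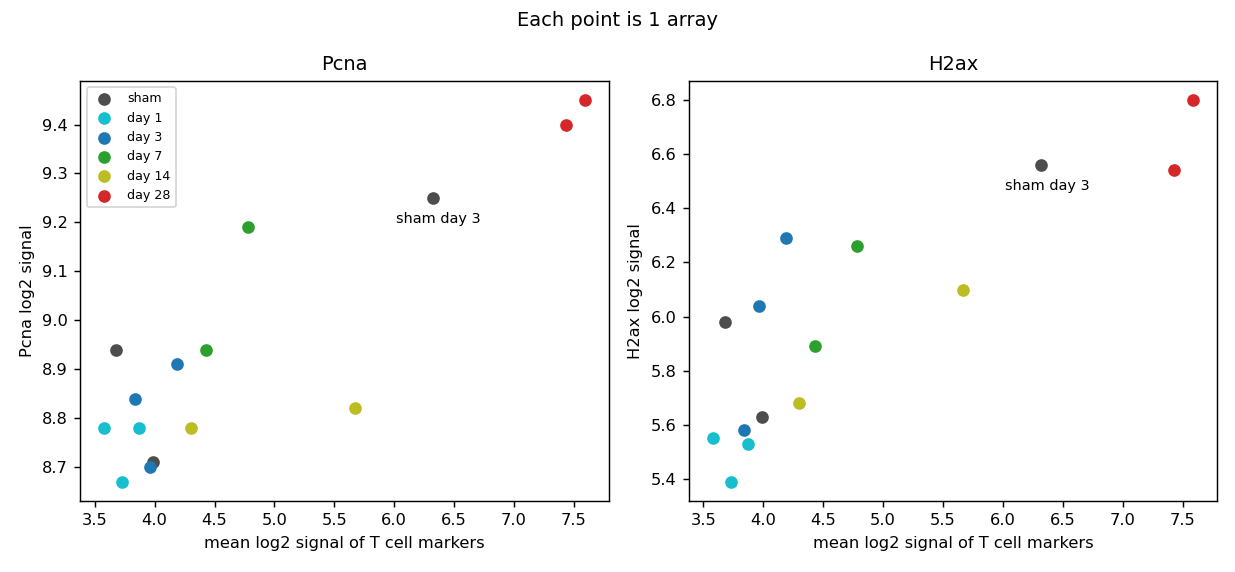
Log2 signal of Pcna (left) and H2ax (right) against the mean log2 signal of 11 thymocyte and T cell markers, with 1 point per array coloured by group. The 2 day 28 arrays and the sham day 3 array lie at marker means of 6.32 to 7.59, with Pcna at 9.25 to 9.45 and H2ax at 6.54 to 6.80.

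Further genes of the same pathways were followed from separate lists. Those tested were 25 other double-strand break genes, 9 other base excision genes, 12 other nucleotide excision genes and 3 other mismatch repair genes. None passed on days 1, 14 or 28, where 0.0602%, 0.833% and 2% of all genes did. On days 3 and 7 the shares of all genes were 8.03% and 4.6%. On day 3 Gtf2h5, a subunit of the TFIIH complex that opens DNA in nucleotide excision, rose by 0.49 (SE 0.137, adjusted p = 0.0449). On day 7 Rad17, which loads the clamp that activates Atr, fell by 0.51 (SE 0.13, adjusted p = 0.0418). Late against early, where 22% of all genes passed, the lists gave 2 of 25, 2 of 9, 1 of 12 and 2 of 3 calls. Those with the smallest p were Parp3 (-0.43, SE 0.0819, adjusted p = 0.00367), Msh3, a mismatch repair gene (-0.30, SE 0.074, adjusted p = 0.0127), and Apex2 (-0.41, SE 0.103, adjusted p = 0.0136). The F test passed 6 of 25, 2 of 9, 1 of 12 and 1 of 3, and 19.2% of all genes.

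Targets of p53, the transcription factor that damage kinases activate, were read from a list of 19, of which 10 were tested. None passed on days 1, 3, 7 or 14, where 0.0602%, 8.03%, 4.6% and 0.833% of all genes did. Their medians on these days were 0.0293, 0.077, -0.0458 and -0.00531. On day 28 1 of 10 passed (2% of all genes did), Trp53inp1 (1.38, SE 0.301, adjusted p = 0.0349), and the median of the 10 was -0.0672. Late against early 3 of 10 passed (22% of all genes did): Trp53inp1 was higher (0.85, SE 0.191, adjusted p = 0.0081), and Ccng1 (-0.13, SE 0.0361, adjusted p = 0.0224) and Rrm2b (-0.25, SE 0.081, adjusted p = 0.0439) were lower.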

How the data were processed

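RNA of isolated left ventricular cardiomyocytes was measured in 15 samples on a gene-level array. The authors deposited normalized log2 signals, with 0 missing values and array medians of 4.96 to 5.13. MAS5 is the tool named in the submitters' processing notes. How it was applied, and in which version, is not given in the sources used here. Array files carry no read depth, and the number of arrays (1 to 3 per labelled group) limits the precision. The proton arm was not analysed here.

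Of 34760 probe sets, 21640 had 1 gene symbol, 1321 several and 11799 none. The 21640 with 1 symbol gave 19937 genes, each by its brightest probe set. For 21553 of these 21640 the gene was in the RefSeq table. limma 3.58.1 (R 4.3.3) fitted 6 group means to the 9969 genes at or above the 50th percentile of mean signal, with an intensity trend and 9 residual degrees of freedom, and p-values were adjusted by Benjamini-Hochberg over these genes. The script was tested on simulated data. The genes, lists and markers were chosen with earlier results of these data known. Named are all repair genes that passed, the 2 with the smallest p where none did, others of each pathway with their values, and of the further repair genes at most the 3 with the smallest p per comparison. Means of lung epithelium markers ran from 4.45 to 7.40 and of erythroid markers from 5.28 to 9.76 over the arrays. Alternatives were quantile normalization, median centring, no or a stricter filter (6646 genes), no trend, array weights, a replicate block, the mean of a gene's probe sets, sham day 1 as control, only the arrays compared, and the removal of single arrays. Removing the span trend and leaving out day 28 were added after the data were seen. Deviations from the group means correlated above 0.1 in 11 of 31 pairs of arrays with the same replicate number (median 0.0616) and in 14 of 50 pairs with other numbers (median -0.029). The main fit did not use the numbers to pair arrays, and the replicate block was tried as an alternative. These correlations cannot decide whether numbers mark pairs, since the deviations in a group of 2 arrays are exact opposites.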

Additional observations from a re-analysis of the deposited data

Results flagged for a closer look

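Differences among the iron days themselves are listed here because they compare the signal at one time after exposure with the signal at another. They use no sham array in their means, so a change with time and a change in the effect of exposure cannot be told apart. By limma's contrast of late (days 7, 14 and 28) against early (days 1 and 3) iron, H2ax was higher by 0.48 and Pcna by 0.32, and Prkdc differed by -0.24 and Ercc5 by -0.19 on the log2 scale. By the F test among the 5 iron days, adjusted p was 0.0123 for Prkdc, 0.0179 for Pcna, 0.0409 for H2ax and 0.0481 for Atr. Groups held at most 3 arrays, too few to test a single array as an outlier.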

How the results depend on the processing

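No repair gene passed on day 1, on day 14 or over all iron days under any of the 25 alternatives. On day 3 the count of 1 became 0 under median centring, no filter, the stricter filter, the replicate block, only the arrays compared and sham day 1 as control, and was 0 to 1 when each array was left out. On day 7 the count of 2 became 0 under no filter, the stricter filter, array weights, the replicate block, only the arrays compared, sham day 1 as control and the span trend removed, rose to 3 under median centring (Trp53bp1 added, with 1111 of all genes passing against 459), and was 0 to 2 with arrays left out. On day 28 the count of 0 became 6 with array weights (24.6% of all genes then passed). It became 2 with the replicate block (3.94%) and 2 with sham day 1 as control (4.77%), and was 0 to 2 with arrays left out. Late against early, the count of 4 (22% of all genes passed) became 7 under quantile normalization (24%) and 6 under median centring (25%). It was 2 under no filter, the stricter filter, the replicate block and day 28 left out (0 to 5 with arrays left out). With day 28 left out, 1256 of all 9969 genes passed. In the F test, 4 became 2 without the filter, 1 under the stricter filter, 11 with array weights and 1 without day 28 (1 to 7 with arrays left out). Without day 28, 676 of all 9969 genes passed the F test, against 1911 in the main fit. For the other F test settings the share of all genes is not given here, so the 11 cannot be read as a result about repair genes. Median centring lowered the share of higher genes among all that passed from 34.7% to 11.8% on day 3, 42% to 16.8% on day 7, 71.1% to 47.6% on day 14, 70.9% to 34.2% on day 28 (58.6% under quantile normalization) and 59.3% to 26.1% over all iron days. No named call changed direction, and apart from the settings that change which arrays or genes enter, the cause was not tested. In the replicate block the sham day 3 array, which has no number in its labels, was a level of its own and so added nothing to the sham mean. Medians that crossed 0 between alternatives were those of the double-strand break genes on days 3 and 14 (-0.0726 to 0.0858 and -0.153 to 0.00385), of the base excision genes on days 7 and 28 (-0.0991 to 0.0127 and -0.067 to 0.0684) and of the nucleotide excision genes on days 7, 14 and 28 (-0.0553 to 0.0641, -0.00666 to 0.123 and -0.0743 to 0.0534). Limits: 1 to 3 arrays per labelled group, no sham arrays used here after day 3, and 11 genes below the signal filter.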

Other observations

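Pcna and Nbn each had a second probe set with their symbol alone. The second Pcna probe set differed by 0.30 between day 28 and sham and by 0.40 between late and early iron days on the log2 scale, and the one used in the report differed by 0.46 and 0.32. For Nbn the values were 0.14 and -0.14 in the second probe set and 0.07 and 0.05 in the one used.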
